A study of Mus musculus with 8 samples.

Results

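The cytosolic ribosomal protein genes were followed in RNA-seq of mouse inguinal white adipose tissue, a fat depot under the skin of the groin. They were chosen by name, as genes called Rpl or Rps followed by a number, the Rplp stalk genes and Rpsa, without the Rps6k kinases and the pseudogenes Rpl34-ps1, Rplp2-ps1 and Rps19-ps3. This gave 86 of the 22869 genes in the deposited counts, 49 named for the large subunit, 3 for the acidic stalk and 34 for the small subunit. Of these, 77 encode the standard ribosomal proteins and 9 are named as paralogs or a binding partner (Rpl3l, Rpl7l1, Rpl10l, Rpl22l1, Rpl36al, Rpl39l, Rps27l, Rps4y2 and Rps19bp1).

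The study compared 4 wild-type libraries with 4 libraries from Fabp4-Ebf2 mice, in which Fabp4 regulatory sequence, active in fat cells, carries Ebf2, a transcription factor of brown and beige adipocytes. Both genotypes were of mixed strain background, about 6 weeks old, kept on chow at room temperature, and their lymph nodes were taken out before RNA extraction, per the labels. The labels give neither the sex, the founder line nor a sequencing batch, and do not say that each library was a separate animal, and p-values here stand for differences between samples that may be technical. Libraries held 16.9 to 24.7 M reads. Ebf2 itself was 27.9 ± 9.30 CPM in wild type against 438 ± 148 CPM in Fabp4-Ebf2 (SD, n = 4 each), a log2 fold change of 3.98 ± 0.35 (SE; adjusted p = 0.00177, edgeR's quasi-likelihood test, Benjamini-Hochberg). CPM is counts per M library reads after scaling between libraries, and fold changes are Fabp4-Ebf2 against wild type throughout. Over all 15002 genes tested 513 passed an adjusted p of 0.05 (3.42%), of which 420 were higher (2.8%) and 93 lower (0.62%). DESeq2 called 843 higher and 368 lower.

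A ribosome is built of a small subunit, which reads the messenger RNA, and a large subunit, which joins the amino acids. Each carries its own set of proteins on ribosomal RNA, and 1 copy of most of these proteins goes into each ribosome, so their genes are usually expressed together and among the strongest of any cell. Their messages are known in mammals for a terminal oligopyrimidine (TOP) tract, a C followed by a run of C and T letters at the first transcribed bases, through which mTORC1 signalling and the RNA-binding protein LARP1 control how much they are translated. Most have many processed pseudogenes, intronless copies scattered over the genome, which makes their short reads hard to place.

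The starts of 8 of these genes are shown because they carry such a tract, and Rpl3l, the muscle paralog of Rpl3, because it does not. Each line gives 20 bases before and 20 bases from the annotated start on the gene's own strand, from RefSeq on GRCm38.p6, with the tract at the start in capitals. The 8 are those with most reads among the genes with a tract.
Rps21, chr2:180257359-180257398, plus strand: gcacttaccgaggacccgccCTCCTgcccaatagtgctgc
Rps18, chr17:33955646-33955685, minus strand: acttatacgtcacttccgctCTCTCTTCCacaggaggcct
Rpl14, chr9:120571497-120571536, plus strand: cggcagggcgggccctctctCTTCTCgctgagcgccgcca
Rps15a, chr7:118116128-118116167, minus strand: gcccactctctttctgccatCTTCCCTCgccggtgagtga
Rplp2, chr7:141447631-141447670, plus strand: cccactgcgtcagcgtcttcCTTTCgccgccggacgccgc
Rpl15, chr14:18270967-18271006, minus strand: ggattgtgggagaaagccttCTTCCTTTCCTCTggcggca
Rpl35a, chr16:33056462-33056501, plus strand: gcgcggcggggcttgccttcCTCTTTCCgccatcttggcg
Rpl38, chr11:114668560-114668599, plus strand: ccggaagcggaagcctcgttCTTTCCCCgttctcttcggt
Rpl3l, chr17:24727806-24727845, plus strand: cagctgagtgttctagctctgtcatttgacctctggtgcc

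The tract searched for was a C and at least 4 more C or T letters on the gene's strand, beginning exactly at an annotated start. It was found for 13 of the 65 genes with an entry in the RefSeq table (20%) and for 813 of all 27025 genes there (3.01%), counting a gene once if any of its starts had it. Allowing the tract to begin up to 10 bases from the start gave 38 of 65 (58.5%) against 32.1% of all genes. The remaining 5 genes with a tract at the start were Rps6, Rps10, Rpl35, Rps27 and Rpl28. Among the 13, fold changes between the genotypes ran from a log2 of -0.47 for Rps18 to 0.01 for Rpl28. A letter match describes the annotated start and does not show where these libraries' transcripts began.

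None of the ribosomal protein genes passed the test between the genotypes, and 75 of the 85 tested had a log2 fold change below 0, by a small amount and with 1 wild-type library well above the other 7. The median log2 fold change was -0.26 (range -1.48 to 0.35), beside -0.01 over all genes tested, of which 51.6% were below 0. It was -0.23 for the 48 large-subunit genes, -0.26 for the 3 stalk genes and -0.27 for the 34 small-subunit genes. The smallest adjusted p was 0.185, of Rps12 (edgeR's quasi-likelihood test). At an unadjusted p under 0.05 there were 4 genes, all lower in Fabp4-Ebf2 (Rpl3l, Rps12, Rps3a and Rps15a, 4 of 85 beside 7.27% of all genes in that direction). DESeq2 called 0 with 5 at that unadjusted level, and limma-voom called 0 with 3. For 80 of the 85 genes the 95% interval of the log2 fold change lay within 1 of 0 in both directions, so larger changes than 2-fold fell outside it. The remaining gene, Rpl10l, a testis-expressed retrocopy of Rpl10, had 0 reads in all 8 libraries, which allows up to 0.122 to 0.178 CPM in a library, 3 reads of its total.

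Reads in the 86 genes took 0.846, 1.42, 0.870 and 0.893% of the library in wild-type replicates 1 to 4 and 0.840, 0.888, 0.675 and 0.826% in Fabp4-Ebf2 replicates 1 to 4. Wild-type replicate 2 stood above all others and Fabp4-Ebf2 replicate 3 below, and the remaining 6 libraries lay close together with the genotypes interleaved. The means were 1.01 ± 0.276% and 0.807 ± 0.0920% (SD, n = 4 each), a difference of -0.20 percentage points that is smaller than the wild-type SD. Without replicate 2 the wild-type mean was 0.870 ± 0.0233% (n = 3), and replicate 2 stood 1.63-fold above it. In tissue RNA, fewer cells that make much of these messages and less of them in each cell cannot be told apart.

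The same library was highest for nearly all of the genes. Wild-type replicate 2 was the highest of the 8 for 71 of the 85 genes, beside 25.5% of all genes tested, and Fabp4-Ebf2 replicate 3 was the lowest for 46, beside 16.3%. Expressed as the median over the 77 standard genes of each gene's deviation from its own mean on the log2 scale, the wild-type libraries stood at -0.08, 0.57, -0.02 and -0.02 and the Fabp4-Ebf2 libraries at -0.08, -0.05, -0.25 and -0.06. Without wild-type replicate 2 the median log2 fold change was -0.07, with 61 genes below 0 and 24 above. Without that library and Fabp4-Ebf2 replicate 3, an alternative added after the data were seen, it was -0.02, with 49 below and 36 above. No gene of the group passed the test with or without these libraries.

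**Figure D1:**
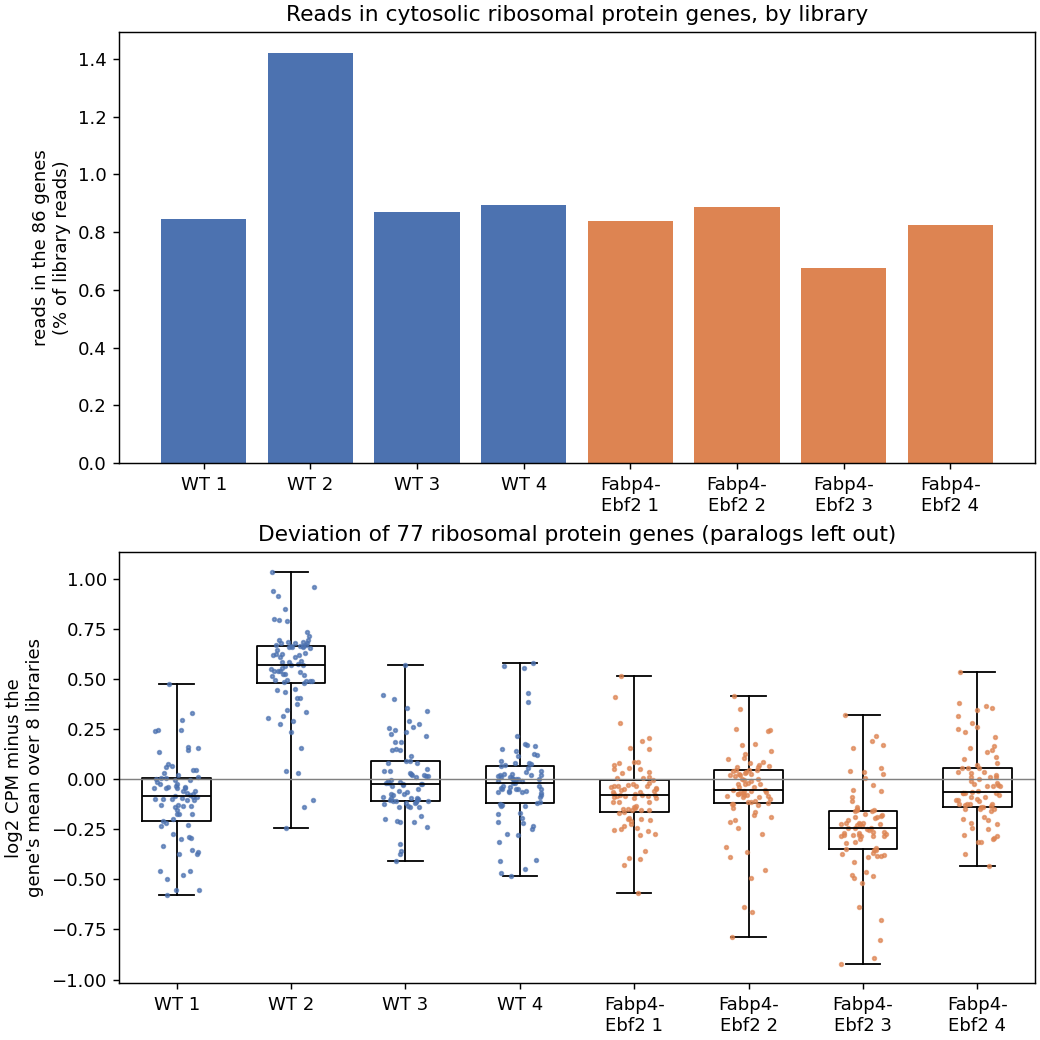
Upper panel, reads in the 86 cytosolic ribosomal protein genes as a percent of all reads, by library. Lower panel, the deviation of each of the 77 standard ribosomal protein genes from its mean over the 8 libraries (log2 CPM), drawn per library. Wild-type replicate 2 stands at 1.42% of reads and a median deviation of 0.57, above the other 7 libraries.

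Markers of some other cells also stood apart in that library. Of 20 lymphocyte markers 17 were highest in wild-type replicate 2, and their summed level was 2105, 3448, 2189 and 2341 CPM in wild-type replicates 1 to 4 and 2109, 2387, 1831 and 1928 CPM in the Fabp4-Ebf2 libraries. Cd79b, part of the B-cell receptor, was 343 CPM there and 130 to 184 CPM in the other 7 libraries, and no lymphocyte marker was at 0 in any library. Of 15 genes of cycling cells 13 were highest in the same library, with summed levels of 298 to 400 CPM in wild type and 269 to 328 CPM in Fabp4-Ebf2. The lymphocyte and cycling lists had median log2 fold changes of -0.29 and -0.24. All 20 and all 15 genes were below 0, beside 51.6% of all genes tested. Neither list had a member past the test (0 of 20 and 0 of 15). The part of these cells in the ribosomal protein levels was not tested. Adipocyte markers were abundant in every library, but their summed level was 32963 to 42928 CPM in wild type and 25864 to 28991 CPM in Fabp4-Ebf2, without overlap. Their mean log2 CPM did overlap, at 10.51 to 11.13 in wild type and 10.26 to 10.64 in Fabp4-Ebf2. Of the 10 adipocyte markers 1, Retn, passed as lower (adjusted p = 0.0276, edgeR). Their median log2 fold change was -0.29, with 7 below 0 and 3 above, and 2 had genotypes that did not overlap. The 12 fibroblast progenitor and 5 erythrocyte markers had medians of -0.35 and -0.64, with 0 past the test in either list. Their summed levels overlapped between the genotypes, at 7101 to 19613 against 5547 to 9278 CPM and at 220.4 to 398 against 116 to 242 CPM. Of 16 macrophage markers 5 were highest in wild-type replicate 2, as were 3 of 14 endothelial markers, beside 25.5% of all genes tested. The summed macrophage level was highest there, at 4686 CPM. Their mean log2 CPM was 7.225 there and slightly higher, at 7.229, in Fabp4-Ebf2 replicate 2. The median log2 fold changes of these 2 lists were 0.05 and -0.18, with 0 past the test in either. Whether these lists bear on the ribosomal protein levels was not tested either.

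The acidic stalk, the flexible arm of the large subunit that recruits elongation factors, showed the pattern plainly. Rplp0, the base of the stalk, was 428, 674, 419 and 442 CPM in wild-type replicates 1 to 4 and 440, 467, 333 and 399 CPM in Fabp4-Ebf2. Rplp1, which pairs with Rplp2 at the tip, was 411, 742, 461 and 493 CPM in wild type and 440, 446, 333 and 470.5 CPM in Fabp4-Ebf2. Wild-type replicate 2 was the highest and Fabp4-Ebf2 replicate 3 the lowest for both, and the genotypes overlapped. Rplp2 was 55.2, 84.5, 53.1 and 54.8 CPM in wild type and 52.9, 53.2, 50.3 and 50.8 CPM in Fabp4-Ebf2, the genotypes overlapping only where wild-type replicate 3 lay below Fabp4-Ebf2 replicate 2. Their log2 fold changes were -0.26, -0.32 and -0.26, with SE of 0.18, 0.19 and 0.15 and adjusted p of 0.481, 0.428 and 0.391 (edgeR's quasi-likelihood test).

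In the small subunit wild-type replicate 2 was the highest library for 30 of 34 genes and Fabp4-Ebf2 replicate 3 the lowest for 20. Rps3, which lies where the messenger enters the ribosome, was 706, 1080, 796 and 813 CPM in wild type and 731, 761, 653 and 720 CPM in Fabp4-Ebf2, a log2 fold change of -0.25 ± 0.15 (SE). Rpsa, which is also known as a laminin receptor, was 175, 299, 168 and 180 CPM against 170, 179, 139 and 163 CPM (-0.34 ± 0.19). In both the highest library was wild-type replicate 2, the lowest Fabp4-Ebf2 replicate 3, and the ranges of the genotypes overlapped. Rps19, whose human counterpart is mutated in Diamond-Blackfan anaemia, was 108 ± 22.7 CPM in wild type against 92.6 ± 5.71 CPM in Fabp4-Ebf2 (SD, n = 4 each). Rps6, the target of the S6 kinases, was 11.8 ± 2.50 and 9.95 ± 0.617 CPM. Rps27a, made as a fusion with ubiquitin, was 7.69 ± 2.26 and 6.67 ± 1.07 CPM, and Rps4x, which is X-linked, 291 ± 77.9 and 233 ± 28.9 CPM. Adjusted p for these 6 small-subunit genes lay between 0.385 and 0.649 (edgeR's quasi-likelihood test).

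Only 3 genes had all 4 Fabp4-Ebf2 libraries below all 4 wild-type libraries, beside 4.08% of all genes, and 0 the reverse, beside 7.35%. They were Rpl3l, Rps3a and Rps14, of which Rps3a and Rps14 were named after their values were seen, as were Rps12 and Rps15a. Rps3a, a small-subunit protein near the messenger's exit, was 120, 178, 126 and 120 CPM in wild type and 115, 113, 90.7 and 104 CPM in Fabp4-Ebf2. The gap between the genotypes was narrow, from 115 to 120 CPM. Its log2 fold change was -0.36 ± 0.14 (SE), with adjusted p = 0.227 by edgeR's quasi-likelihood test. Rps14 lay at 180 to 291 CPM in wild type and 155 to 178 CPM in Fabp4-Ebf2, with a log2 fold change of -0.32 ± 0.16. Rps12 was 9.97, 14.8, 13.2 and 12.1 CPM in wild type and 9.54, 9.01, 9.30 and 10.7 CPM in Fabp4-Ebf2 (-0.38 ± 0.14), the genotypes overlapping through wild-type replicate 1. Rps15a was 89.7, 150, 110 and 117 CPM in wild type and 93.4, 90.0, 93.1 and 99.3 CPM in Fabp4-Ebf2 (-0.31 ± 0.14), again overlapping through wild-type replicate 1.

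**Figure D2:**
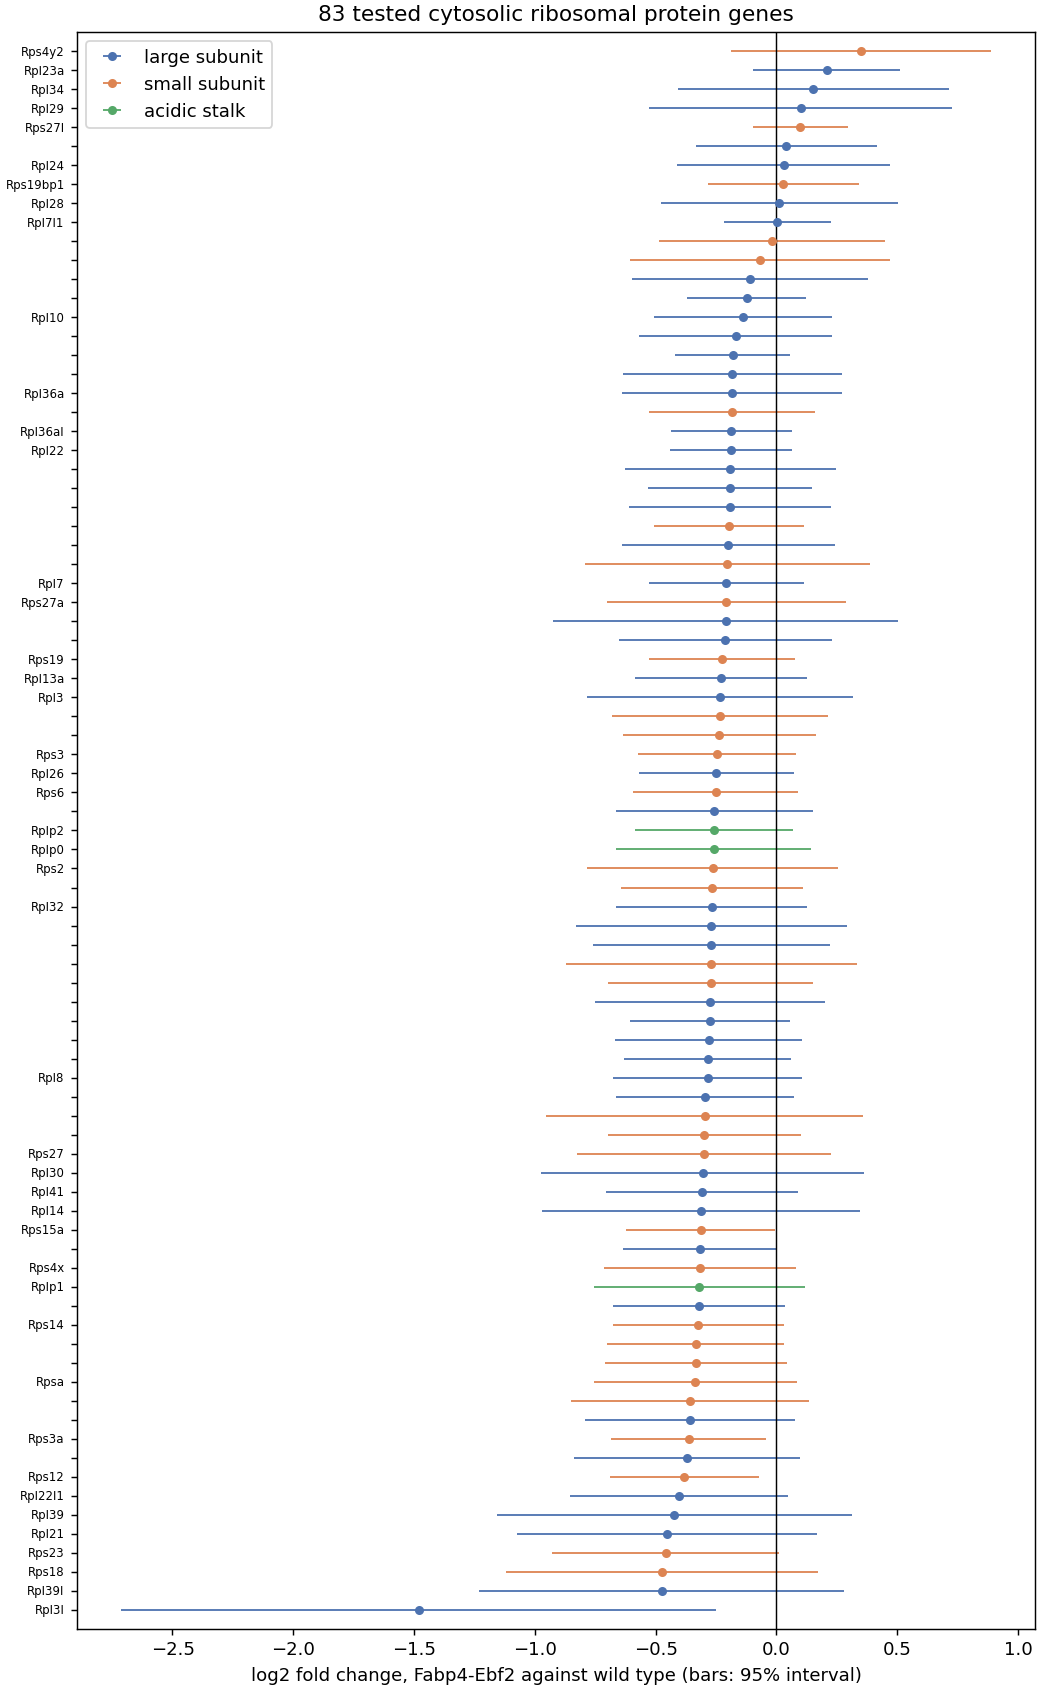
Log2 fold change of 83 of the 85 tested genes, Fabp4-Ebf2 against wild type, with its 95% interval. Points are ordered by size and coloured by subunit, and most genes that the text names are labelled. Of the points 73 lie below 0 and 10 above, and Rpl3l is the lowest at -1.48.

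In the large subunit wild-type replicate 2 was the highest library for 38 of 48 genes and Fabp4-Ebf2 replicate 3 the lowest for 23. Rpl8, next to the peptidyl transferase centre, was 662, 1068, 683 and 698 CPM in wild type and 681, 683, 544 and 646 CPM in Fabp4-Ebf2 (-0.28 ± 0.17). Rpl13a, known in human cells for silencing inflammatory messages, was 289 ± 71.3 CPM in wild type against 247 ± 14.7 CPM in Fabp4-Ebf2. Rpl32, often used as a reference gene, was 42.9, 72.8, 41.8 and 43.1 CPM in wild type and 43.5, 42.0, 37.9 and 43.2 CPM in Fabp4-Ebf2. Apart from wild-type replicate 2 and, less far, Fabp4-Ebf2 replicate 3, its values lay between 41.8 and 43.5 CPM in both genotypes. Rpl26, which in human cells also binds the p53 messenger, was 89.3 ± 19.6 and 75.2 ± 6.36 CPM. Rpl7 was 164 ± 36.1 and 142 ± 10.5 CPM, and Rpl41, the shortest of the proteins, 362 ± 97.4 and 293 ± 32.3 CPM. Adjusted p for these 6 genes lay between 0.399 and 0.482 (edgeR's quasi-likelihood test).

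The 5 highest fold changes were those of Rps4y2, Rpl23a, Rpl34, Rpl29 and Rps27l, and none passed the test. Rps4y2, named as a relative of Rps4x and placed on chromosome 6 by RefSeq, was counted on a RefSeq record of a non-coding transcript, and no coding sequence was matched to it. It was 14.9, 18.9, 19.2 and 14.9 CPM in wild type and 24.6, 11.4, 26.5 and 24.2 CPM in Fabp4-Ebf2. The 3 Fabp4-Ebf2 libraries other than replicate 2 lay above all wild-type libraries, and replicate 2 below them all. Its log2 fold change was 0.35 ± 0.24 (SE; adjusted p = 0.479, edgeR's quasi-likelihood test) and 0.55 without Fabp4-Ebf2 replicate 2 (adjusted p = 0.0353), the only setting under which any of the genes passed. Rpl23a, a docking protein at the exit of the peptide tunnel, was 5.07 ± 0.407 and 5.86 ± 0.661 CPM, its highest value of 6.81 CPM being that of Fabp4-Ebf2 replicate 3. Rpl34 was 8.87 to 14.9 CPM in wild type and 8.14 to 16.7 CPM in Fabp4-Ebf2. Rps27l, a paralog of Rps27 and in human cells a p53 target, was 49.0 ± 4.59 and 52.6 ± 3.41 CPM. The 5 lowest were those of Rpl3l, Rpl39l, Rps18, Rps23 and Rpl21, with log2 values of -1.48, -0.48, -0.47, -0.46 and -0.45.

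Rpl3l is the form of Rpl3 found in striated muscle, and it was the only one of the genes with a fold change beyond 2. It had 52, 29, 31 and 19 reads in wild-type replicates 1 to 4 and 10, 21, 15 and 2 in Fabp4-Ebf2. That is 2.73, 1.12, 1.38 and 1.13 CPM in wild type and 0.472, 0.880, 0.866 and 0.0817 CPM in Fabp4-Ebf2. The genotypes did not overlap, wild-type replicate 1 was the highest and Fabp4-Ebf2 replicate 4, with 2 reads, the lowest. The log2 fold change was -1.48 ± 0.55 (SE; 95% interval -2.71 to -0.25; adjusted p = 0.200, edgeR's quasi-likelihood test). It was -1.10 without wild-type replicate 1 and -1.10 without Fabp4-Ebf2 replicate 4. The authors' deposited table gives Rpl3l a log2 fold change of -1.41 and an FDR of 0.0288, the 1 ribosomal protein gene under 0.05 there, where 6.14% of all genes were. Rpl3 itself was 61.3 ± 17.1 CPM in wild type against 52.2 ± 14.6 CPM in Fabp4-Ebf2 (log2 fold change -0.23 ± 0.25).

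Skeletal muscle transcripts moved with Rpl3l. The mean over 21 markers was 5.11, 3.70, 4.05 and 3.78 log2 CPM in wild-type replicates 1 to 4 and 2.15, 3.54, 2.24 and 1.00 in Fabp4-Ebf2, with the highest and the lowest library the same as for Rpl3l. All 21 had a log2 fold change below 0 (median -1.97) and 1, the calcium-storage protein Casq1, passed the test (adjusted p = 0.0474, edgeR). Acta1, the actin of skeletal muscle, ran from 64.4 to 207 CPM in wild type and from 5.27 to 56.6 CPM in Fabp4-Ebf2, and no marker was at 0 in any library. Summed over the list, the level was 527 to 1554 CPM in wild type and 75 to 494 CPM in Fabp4-Ebf2. The part of muscle RNA in the Rpl3l counts was not tested.

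**Figure D3:**
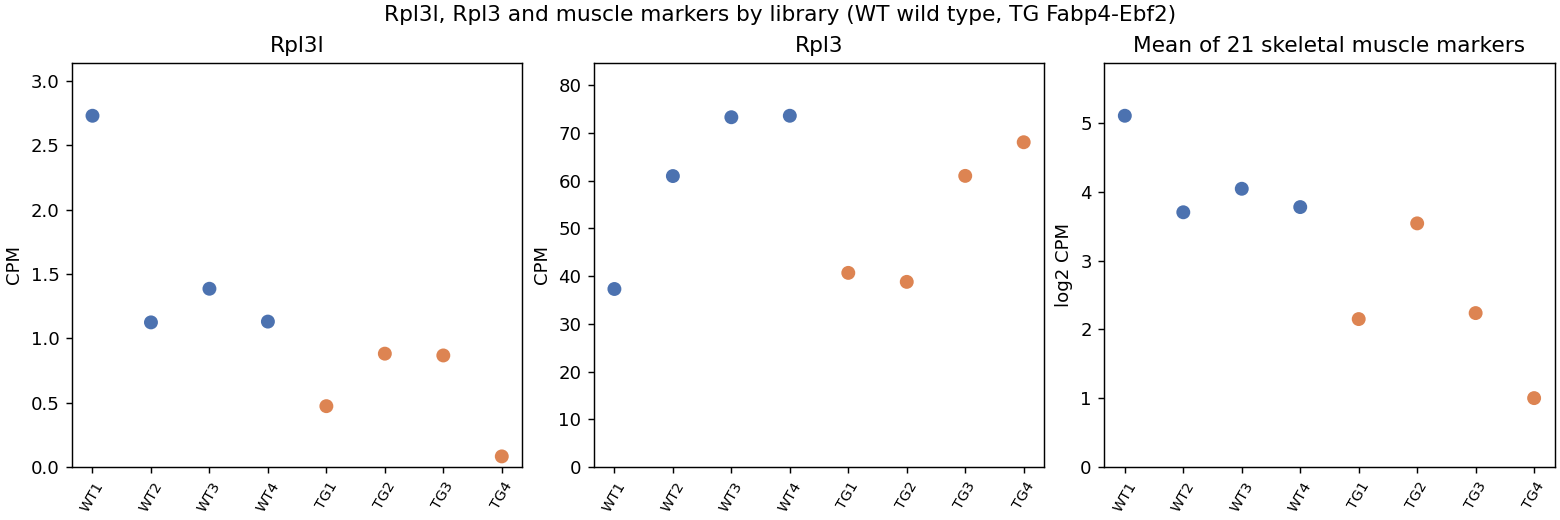
Rpl3l (CPM, left), its general form Rpl3 (CPM, middle) and the mean of 21 skeletal muscle markers (log2 CPM, right) in each library. Rpl3l and the muscle markers are both highest in wild-type replicate 1 and lowest in Fabp4-Ebf2 replicate 4, and Rpl3 follows neither.

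The other paralogs gave no call. Rpl22, an RNA-binding protein needed for normal T-cell development in mice, was 180 ± 28.5 CPM in wild type against 158 ± 6.75 CPM in Fabp4-Ebf2, and Rpl22l1 23.2 ± 6.90 and 17.5 ± 2.49 CPM, with log2 fold changes of -0.19 and -0.40. Rpl39, of the peptide exit tunnel, was 40.1, 67.0, 28.8 and 24.6 CPM in wild type and 39.7, 35.0, 18.7 and 26.3 CPM in Fabp4-Ebf2. Its testis-enriched paralog Rpl39l was 4.20, 3.21, 2.77 and 2.73 CPM in wild type and 1.65, 4.02, 1.27 and 2.25 CPM in Fabp4-Ebf2, overlapping through replicate 2. Rpl10, the protein that joins the large subunit last, was 15.0 ± 3.48 and 13.6 ± 1.45 CPM. Rpl36a was 2.04 ± 0.427 and 1.81 ± 0.186 CPM and its paralog Rpl36al 40.8 ± 6.09 and 35.8 ± 2.54 CPM, with log2 fold changes of -0.18 and -0.19. Rps27 was 3.44 ± 1.10 and 2.80 ± 0.306 CPM, counted on a RefSeq record of a non-coding transcript, and its coding sequence was matched by name only. Rpl7l1, a distant relative of Rpl7, was 65.7 ± 2.97 and 65.9 ± 8.60 CPM, and Rps19bp1, a binding partner of Rps19 known as a regulator of Sirt1, 17.6 ± 3.16 and 18 ± 1.59 CPM. Neither shared the rise of wild-type replicate 2 to the same degree: there Rpl7l1 was 68.4 CPM, below Fabp4-Ebf2 replicate 1 at 76.3 CPM, and Rps19bp1 was 21.3 CPM beside 20.04 CPM in Fabp4-Ebf2 replicate 3. The log2 fold changes of Rpl7l1 and Rps19bp1, 0.00 and 0.03, changed sign with upper-quartile scaling and with scaling by library size alone.

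Some genes of the group departed from the shared order of libraries. The level of each gene was set against the median of the ribosomal protein genes in its library, on the log2 scale. Rpl3, on chromosome 15, stood at -0.47, -0.41, 0.44 and 0.45 in wild-type replicates 1 to 4 and at -0.35, -0.44, 0.40 and 0.38 in Fabp4-Ebf2. Rpl30, also on chromosome 15, stood at -0.47, -0.54, 0.59 and 0.58 and at -0.49, -0.58, 0.46 and 0.44. Both were low in the libraries numbered 1 and 2 and high in those numbered 3 and 4, in either genotype, and their read counts averaged 1210 and 1304 per library. Of the 5 genes of the group on chromosome 15 only Rpl3 and Rpl30 had this order, and another ran largely the other way. Rpl8, also there, varied by only 0.16 over the libraries. Rpl38, on chromosome 11, had the order of Rpl3, at -0.20, -0.30, 0.27 and 0.19 in wild type and -0.32, -0.40, 0.42 and 0.34 in Fabp4-Ebf2. Rpl14, on chromosome 9, ran the other way, at 0.41, 0.34, -0.35 and -0.39 in wild type and 0.24, 0.23, -0.24 and -0.25 in Fabp4-Ebf2. Rpl39, on the X chromosome, was at 0.38, 0.46, -0.16 and -0.39 and at 0.36, 0.15, -0.56 and -0.25. Rpl30, Rpl14 and Rps2 were chosen after their values were seen, as was Rpl38 for this comparison.

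A second arrangement of libraries held for Rps18 and Rps2, both on chromosome 17. Rps18, often used as a reference transcript, was 138, 108, 153 and 174 CPM in wild type and 134, 67.3, 62.5 and 149 CPM in Fabp4-Ebf2. Set against the group's median it stood at 0.33, -0.67, 0.42 and 0.60 and at 0.29, -0.73, -0.65 and 0.42, low in wild-type replicate 2 and Fabp4-Ebf2 replicates 2 and 3. Rps2 stood at 0.13, -0.71, 0.36 and 0.40 and at 0.27, -0.61, -0.27 and 0.43, low in the same 3 libraries. Of the 8 genes of the group on chromosome 17 only Rps18 and Rps2 had this arrangement. Rpl7l1, also there, stood at -0.51 in wild-type replicate 2 but at -0.16 and 0.17 in Fabp4-Ebf2 replicates 2 and 3. Rps18 was the lowest of the standard genes in fold change (-0.47 ± 0.29; adjusted p = 0.427, edgeR), and its Fabp4-Ebf2 libraries spanned 62.5 to 149 CPM, wider than the difference between the genotype means of 143 and 103 CPM.

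Rpl29 and Rpl21 each had an arrangement of their own. Rpl29, on chromosome 9, was 39.3, 60.3, 69.0 and 68.1 CPM in wild type and 78.0, 74.7, 30.9 and 69.8 CPM in Fabp4-Ebf2, with its lowest values in wild-type replicate 1 and Fabp4-Ebf2 replicate 3. Its log2 fold change was 0.10 ± 0.28. Rpl21, on chromosome 5, was 59.3, 53.1, 33.3 and 62.8 CPM in wild type and 61.0, 33.1, 26.2 and 31.6 CPM in Fabp4-Ebf2. Wild-type replicate 3 lay just above the 3 lower Fabp4-Ebf2 libraries and Fabp4-Ebf2 replicate 1 among the higher wild-type libraries (-0.45 ± 0.28; adjusted p = 0.427, edgeR). Every coding word of 50 bases in Rpl21 recurs in another annotated gene, and 81 of the 82 genes sharing one are pseudogenes. For Rps2 71 genes share such a word, all of them pseudogenes, and for Rpl3 26, all pseudogenes. Which copy a read was counted for in these libraries was not tested.

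**Figure D4:**
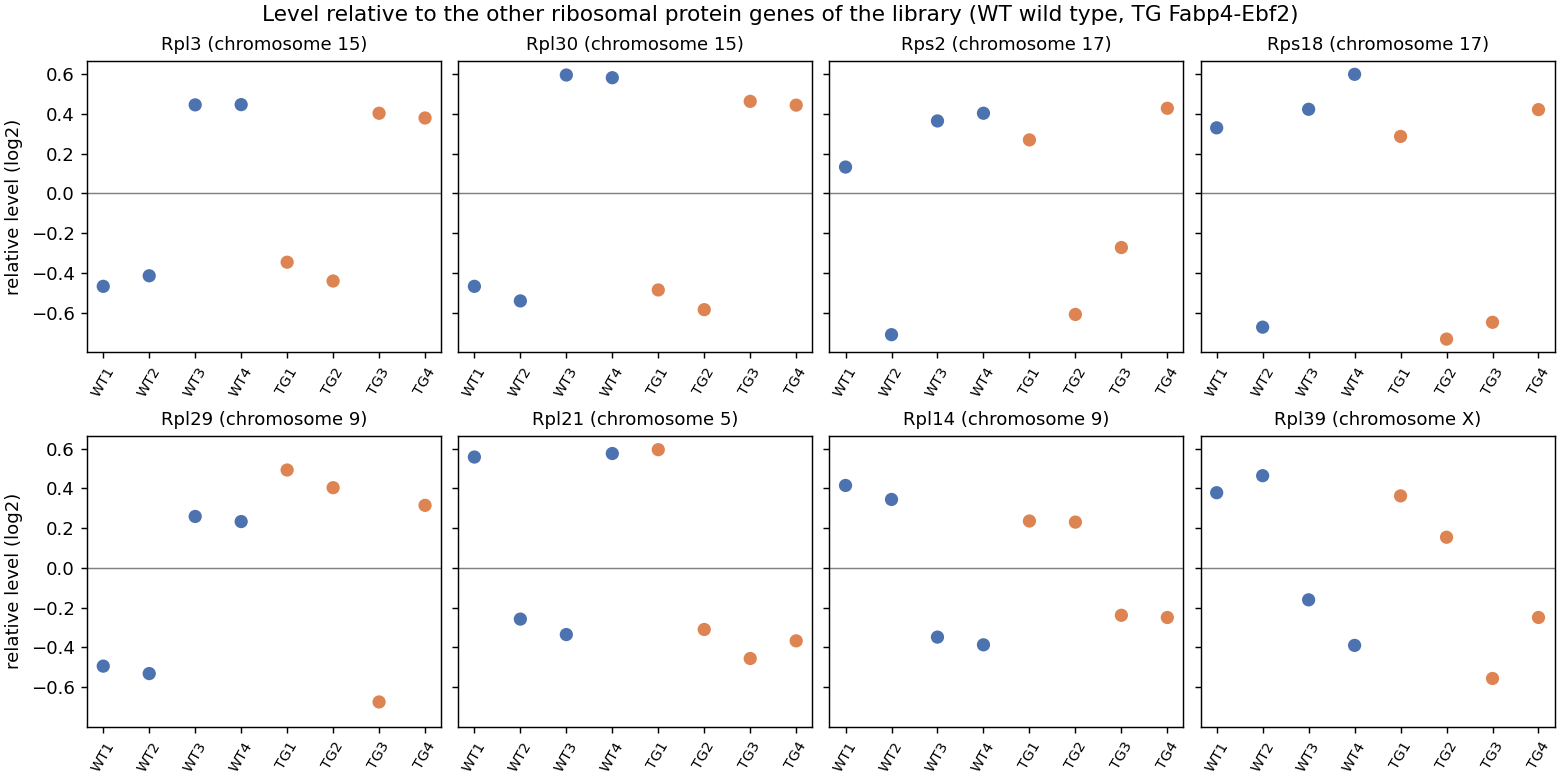
Level of 8 genes relative to the median of the ribosomal protein genes in the same library (log2), with wild-type libraries (WT) and Fabp4-Ebf2 libraries (TG) in order of replicate number. Rpl3 and Rpl30 share 1 arrangement of high and low libraries and Rps2 and Rps18 another, and none of the 8 separates the genotypes.

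The level at which a gene was counted went with how much of its sequence is its own. For 84 tested genes with a coding sequence in the GENCODE annotation of GRCm38, the share of 50-base words found in no other annotated gene was set beside the mean CPM per kb of coding sequence. The 30 genes with no unique word had a median of 17.3 CPM per kb. The 38 with a share above 0 and below 50% had 140, and the 16 with 50% or more had 516. Across genes, which are not independent of each other, Spearman's rho was 0.61 (n = 84), all measured in the same 8 libraries. Counted levels per kb of coding sequence ran as far apart as 1073 CPM for Rps3 and 5.71 CPM for Rpl28, although both proteins belong to every ribosome.

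Most named genes at the 2 ends show the same. Rps3 (91.9% unique words) and Rpl8 (91.3%, 918 CPM per kb) were among the 5 highest per kb of coding sequence, with Rplp1 (39.6%, 1388 CPM per kb) and Rpl41. Rpl41 has no unique word and yet the highest value of all, 4367 CPM per kb. That value is set on a coding length of only 75 bases and counts reads of the whole transcript. Rpl28, Rpl36a, Rpl24 and Rps23, all with no unique word, had 5.71, 6.06, 6.43 and 6.63 CPM per kb of coding sequence. Rps23, a protein of the decoding site, was 2.78, 4.41, 3.57 and 2.38 CPM in wild type and 2.36, 2.56, 2.37 and 2.33 CPM in Fabp4-Ebf2, and Rpl24, which bridges the subunits, 2.99 ± 0.655 and 3.07 ± 0.360 CPM. There were exceptions besides Rpl41: Rpl3l, Rpl39l and Rps19bp1 are fully unique at 0.887, 18.1 and 41.4 CPM per kb. No source used here names the aligner or its rule for reads with several matches. The levels of genes with few unique words are therefore uncertain. Fold changes compare the same gene between libraries, but whether shared reads were assigned alike in each library was not tested.

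**Figure D5:**
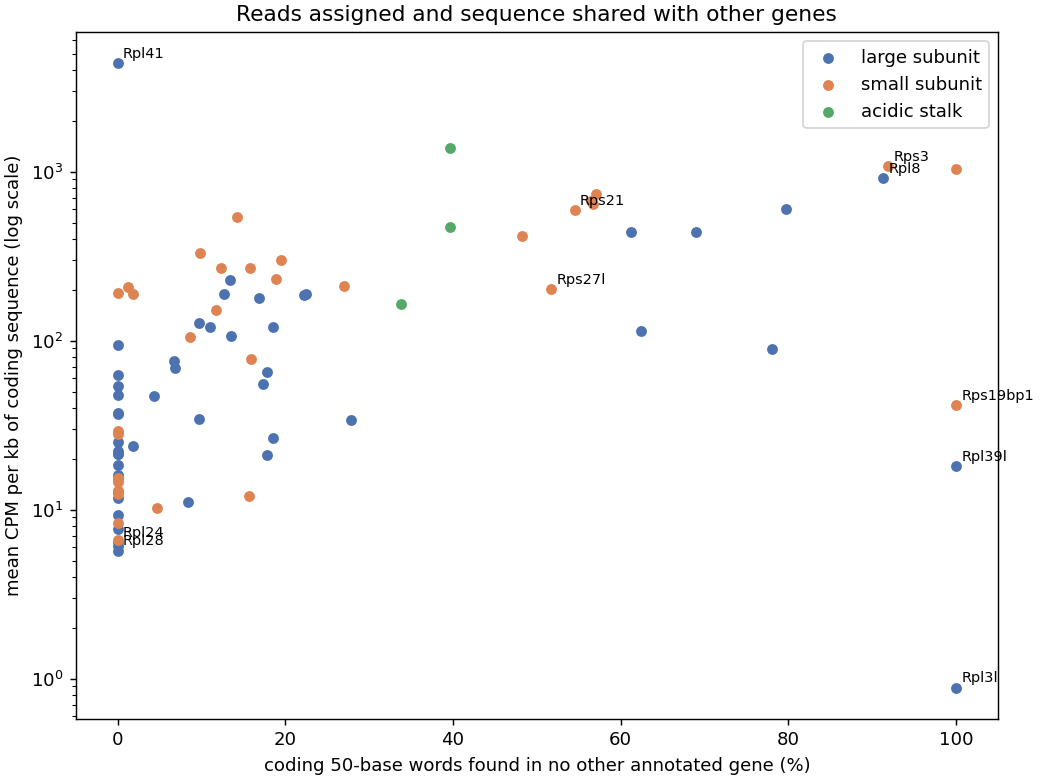
Mean CPM per kb of coding sequence (log scale) against the percent of coding 50-base words found in no other annotated gene, 1 point per ribosomal protein gene, 84 genes. Genes at 0% have a median of 17.3 and genes at 50% or more a median of 516. Rpl3l is the lowest point among the fully unique genes, and Rpl41, at 0%, is the highest point of all.

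Few other genes of translation passed the test between the genotypes. The 3 ribosomal proteins that the name rule leaves out had 0 calls: Gnb2l1, the signalling scaffold RACK1 on the small subunit, was 905 ± 213 CPM in wild type against 746 ± 92.3 CPM in Fabp4-Ebf2, and Fau, a fusion of a ubiquitin-like protein with a small-subunit protein, 10.5 ± 1.33 and 10.8 ± 2.25 CPM. Of 20 elongation factors and other TOP messages 0 passed in either direction (median log2 fold change -0.12), and 14 of the 20 were highest in wild-type replicate 2. The smallest p-values there were those of Nap1l1 and Npm1, histone chaperones, Eef1b2, an elongation factor subunit, and Btf3, of the nascent-chain complex, with log2 fold changes of -0.33, -0.28, -0.32 and -0.24 and adjusted p from 0.158 to 0.356. Nap1l1 and Npm1 had non-overlapping genotypes, at 93.7 to 134 against 84.4 to 92.0 CPM and 98.2 to 135 against 83.3 to 91.3 CPM.

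Among 32 initiation factors 0 passed, with a median of 0.02. Eif1a, which helps to scan for the start codon, had the smallest adjusted p (0.0799, edgeR) at 62.9 ± 3.85 CPM in wild type against 79.2 ± 7.81 CPM in Fabp4-Ebf2, followed by Eif2b4, Eif5 and Eif4a1 with log2 fold changes of 0.24, 0.18 and -0.19. Of 64 factors that assemble ribosomes 0 passed (median -0.03), and Imp3, Dhx37, Noc3l and Bysl had values between -0.24 and 0.18. Of 15 RNA polymerase I genes, which make the ribosomal RNA precursor, 0 passed (median -0.03). Rrn3, which recruits that polymerase, was 47.1 to 48.5 CPM in wild type and 51.9 to 58.1 CPM in Fabp4-Ebf2, without overlap (log2 fold change 0.19 ± 0.07; adjusted p = 0.180, edgeR), while Polr1b, Polr1e and Polr1a were at -0.13, -0.18 and 0.12. Of 10 hosts of small nucleolar RNAs, several of them with TOP tracts themselves, 0 passed (median -0.11), and Gas5, Snhg8, Snhg1 and Snhg5 were at -0.26, -0.27, -0.20 and -0.11.

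Mtor, the kinase through which growth signals reach the TOP messages, was the 1 gene of these 7 lists to pass. It was 111, 70.2, 102 and 109 CPM in wild type and 170, 134, 203 and 168 CPM in Fabp4-Ebf2, without overlap. Its log2 fold change was 0.78 ± 0.17 (SE; adjusted p = 0.0372, edgeR's quasi-likelihood test), 1 of 25 in the mTORC1 list, whose median was 0.10. That list ran from -0.59 to 0.84, and 8 of its 25 genes had an unadjusted p under 0.05 (edgeR), beside 2625 of all 15002. For 6 of the 25 all Fabp4-Ebf2 libraries lay above all wild-type libraries, beside 7.35% of all genes. Leaving out any 1 library other than the replicates numbered 2 left 0 genes of the 7 lists past the test. Rptor, its partner in mTORC1, and Larp4 had log2 fold changes of 0.33 and 0.35, and Eef2k, the kinase that slows elongation, -0.44, with adjusted p of 0.120, 0.161 and 0.165.

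The ribosome of the mitochondrion is built from other nuclear genes. The genes with its names, Mrpl and Mrps, went the other way. Of 76 tested 10 were higher in Fabp4-Ebf2 and 0 lower, beside 2.8% and 0.62% of all genes tested. A log2 fold change above 0 was found for 71, beside 7264 of all 15002, with a median of 0.25. For 34 all Fabp4-Ebf2 libraries lay above all wild-type libraries, beside 7.35% of all genes. Mrpl42 was 30.2, 28.9, 29.6 and 27.4 CPM in wild type and 45.9, 40.8, 54.8 and 42.1 CPM in Fabp4-Ebf2. The genotypes did not overlap, and neither wild-type replicate 2 nor any other wild-type library stood apart (log2 fold change 0.66 ± 0.10; adjusted p = 0.0135, edgeR). Mrps36, Mrps2 and Mrpl55 had log2 fold changes of 1.13, 0.61 and 0.54 with adjusted p of 0.0192, 0.0222 and 0.0237 (edgeR). Mrps36, the highest of the list, was listed by its name alone, and its place in that ribosome was not tested. The count of 10 was 0 to 3 when any 1 library other than the replicates numbered 2 was left out, and 20 without replicate 2 of Fabp4-Ebf2. Thermogenic adipocyte markers also passed in 9 of 12 cases, all higher, beside 2.8% of all genes. The difference between the cytosolic and mitochondrial lists is given by their counts and medians and was not tested.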

How the data were processed

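Polyadenylated RNA was sequenced from 4 wild-type and 4 Fabp4-Ebf2 samples with TruSeq libraries, per the labels. The authors deposited read counts per RefSeq transcript (28644), on mm9 per the submitters' processing notes. Per the file headers their table also held the authors' edgeR log2 fold change and the authors' FDR, an adjusted p-value. A further 8 per-sample columns were not used. How reads were aligned and counted, and whether by strand, is not given in the sources.

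Each gene was represented by the transcript marked best or, where none was, by the one with most reads (75 and 11 of the 86 genes). Counts of 22869 genes, 16.9 to 24.7 M reads per library, were tested with edgeR 4.0.16 (R 4.3.3, TMM, filterByExpr, glmQLFit and glmQLFTest, genotype only) and Benjamini-Hochberg adjustment over 15002 genes. The biological coefficient of variation was 18.7%. Limits from 3 reads cover counting error only. Standard errors are the log2 fold change over the square root of F. Levels per library are TMM-scaled CPM, and log2 levels add 0.1 CPM.

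The members and gene lists were chosen with earlier results of these data known. Named genes were the 5 highest and 5 lowest log2 fold changes, the 5 most and 5 fewest reads per kb, fixed genes and paralog sets, Ebf2, and up to 4 genes with the smallest p of each list of translation genes. Alternatives were DESeq2 1.42.0, limma-voom (limma 3.58.1), other scaling, filters and transcript choices, a block on replicate number and each library left out. Leaving out 2 libraries together was added after the data were seen. On simulated data (15002 genes, this comparison) the test found 13 of the 67 genes set to 1.5-fold, 37 of the 67 at 2-fold and 64 of the 66 at 4-fold, and called 12 that were unchanged. Sequences and names came from RefSeq on GRCm38.p6 and shared words from GENCODE on GRCm38, not the authors' build, so no deposited coordinate was used. Results for some genes are not reported here. Figures were drawn with matplotlib 3.10.9.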

Additional observations from a re-analysis of the deposited data

Results flagged for a closer look

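Within the groups of 4 libraries, 38 measures (the share of reads and 37 named genes) were screened for a library far from the other 3 of its genotype, and 14 of the 76 groups were marked, where chance marks about 1 in 20. Genes of this group vary together, so these marks are not independent.

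Wild-type replicate 2 stood far above its group in 10 of the 14. There the share of reads in ribosomal protein genes was 1.42%, and Rplp0 was 674 CPM, Rplp2 84.5 CPM, Rpsa 299 CPM, Rpl32 72.8 CPM and Rpl22 223 CPM. In the same library Rps4x was 407 CPM, Rpl7 218 CPM, Rps19 142 CPM and Rpl8 1068 CPM. Over all 85 tested genes this library was the one that stood apart, on the high side, for 22.

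In 4 groups another library stood apart. Rpl3l was 2.73 CPM in wild-type replicate 1, where the skeletal muscle markers were also highest. Rps4y2 was 11.4 CPM in Fabp4-Ebf2 replicate 2, below the other 3, and Rps23 was 2.56 CPM there, above the other 3. Rps27a was 8.26 CPM in Fabp4-Ebf2 replicate 4.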

How the results depend on the processing

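The count of ribosomal protein genes past the threshold was 0 under every alternative run except without Fabp4-Ebf2 replicate 2, when it was 1 (range 0 to 1 with a library left out). Their median log2 fold change stayed below 0, from -0.32 to -0.07 with a library left out, and was -0.021 with wild-type replicate 2 and Fabp4-Ebf2 replicate 3 both left out. The difference in their share of reads ran from -0.25 to -0.06 percentage points with a library left out. Over all genes the count of 513 became 1211 in DESeq2 and 116 to 918 with a library left out. The 7 translation lists had 2 calls in DESeq2, 2 with the replicate block and 0 to 3 with a library left out, in place of 1. Mitochondrial ribosomal protein genes had 27 calls in DESeq2, 6 with upper-quartile factors and 0 to 20 with a library left out, in place of 10. The causes were not tested.

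Deviations of same-numbered libraries from their genotype means had correlations of -0.13, 0.33, 0.14 and 0.06. Differently numbered libraries were not compared, so these values cannot settle whether the numbers are pairs. The main test used genotype only. The replicate block left 0 ribosomal protein genes called, with 16 at an unadjusted p under 0.05 in place of 4 (edgeR's quasi-likelihood test).

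Signs changed for 12 named genes, none of which passed the test. With both libraries left out Rpl10, Rpl32, Rpl39, Rpl7, Rplp0 and Rps27a were at 0.033, 0.012, 0.112, 0.0020, 0.020 and 0.0095. With upper-quartile factors Rpl24, Rpl28, Rpl7l1 and Rps19bp1 were at -0.011, -0.031, -0.039 and -0.016, and with library size only at -0.018, -0.037, -0.046 and -0.026. Rpl7l1 was at -0.00089 in DESeq2, -0.0031 with RLE factors, -0.0036 in limma-voom and -0.0043 with the replicate block. With a library left out the values ran from -0.218 to 0.027 for Rpl10, -0.095 to 0.150 for Rpl24, -0.094 to 0.180 for Rpl28, -0.052 to 0.327 for Rpl29, -0.020 to 0.320 for Rpl34, -0.074 to 0.064 for Rpl7l1 and -0.075 to 0.128 for Rps19bp1. Of 703 values for 37 named genes under 19 alternatives, 670 kept their sign and side of the threshold.

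Depth limits Rpl3l and the genes under about 3 CPM, whose counts per library were lowest.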
